A study of Mus musculus with 12 samples.

Results

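Adipose tissue from Ahnak knockout (KO) mice on a high fat diet was set against the tissue of lean wild-type (WT) mice, to see which of the changes that the diet brings in WT animals were present in KO animals on that diet and which were absent. The comparison rests on 6 of the 12 arrays of the series: 3 arrays of Ahnak knockout on high fat diet (KO HFD) and 3 arrays of wild-type control on regular chow (WT chow). All 19937 genes with a row of their own were tested. The other 6 arrays, 3 of KO on chow (KO chow) and 3 of WT on high fat diet (WT HFD), entered the fit and gave the reference for what the diet does in WT. All animals were male and 18 weeks old, and the feeding groups were matched for weight. The high fat diet held 60% fat, 20% carbohydrate and 20% protein and was given for 12 weeks. The sources used here do not give the fat depot, the strain, the way the Ahnak allele was made, or whether each array came from 1 animal or a pool. P-values therefore measure only the spread between these arrays, which may in part be technical.

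White adipose tissue stores fat in adipocytes, and on a high fat diet it grows, remodels its matrix and takes up macrophages, many of which surround dying adipocytes and load lipid. In WT mice such feeding also lowers enzymes of fatty acid synthesis and of branched chain amino acid breakdown in adipocytes. AHNAK is a giant scaffold protein that binds annexin A2 and S100A10 beneath the cell membrane. KO HFD and WT chow differ in both genotype and diet, and these cannot be told apart in this difference. It is the sum of the diet change within KO and the genotype change on chow. In bulk tissue, fewer cells of a type and less RNA per cell cannot be told apart either.

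The values are log2 intensities, so a difference of 1 is a 2-fold difference. Array medians lay between 5.78 and 5.92, and arrays of 1 group correlated across genes at r = 0.985 to 0.996. The adipocyte genes Adipoq, Fabp4 and Plin1 had means of 13.1, 13.2 and 12.9 in WT chow, so the defining markers of the labelled tissue were present. On the first principal component (58.1% of the variance) KO HFD lay between -7.78 and 11.4, against -28.4 to -15.6 in WT chow and 26.4 to 57.8 in WT HFD. On the second (17.2%) KO HFD lay highest, at 13.1 to 28.2, and WT chow at -14.9 to 1.44. KO HFD replicate 1 stood nearest to the chow arrays on the first component, and many of the named genes for which it stands apart are given with and without it. Ahnak itself lay at 9.94, 10.06 and 10.08 in WT chow and at 9.58, 9.40 and 9.45 in KO HFD. The groups did not overlap, and the difference was -0.55 ± 0.13 (SE), with an adjusted p of 0.052. A signal above 9 remained in KO. The sources used here do not say whether the row reads the disrupted part of the gene.

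At an adjusted p under 0.05, far fewer genes passed for KO HFD against WT chow than for WT HFD against WT chow. With limma and a Benjamini-Hochberg adjusted p under 0.05, 337 of 19937 genes passed (1.69%), 194 of them higher (0.973%) and 143 lower (0.717%) in KO HFD. Over 2-fold, 28 of them were higher (0.14%) and 31 lower (0.155%). Whether they passed or not, 47 genes were over 2-fold higher (0.236%) and 253 over 2-fold lower (1.27%), so most of the large negative differences did not pass. For WT HFD against the same WT chow arrays 4802 genes passed (24.1%), 2345 higher (11.8%) and 2457 lower (12.3%). For KO HFD against WT HFD 2691 passed (13.5%), and for KO HFD against KO chow 1264 (6.34%). On chow, KO against WT gave 0 calls by limma and 1116 genes at an unadjusted p under 0.05. In the lists below, called genes for KO HFD against WT chow stand against 0.973% of all genes higher and 0.717% lower. Those for WT HFD against WT chow stand against 11.8% and 12.3%. For KO HFD against WT chow 3812 genes (19.1%) had an unadjusted p under 0.05, the share against which such counts in the lists below stand. For WT HFD against WT chow 7023 genes did, a smaller gap than that between the adjusted counts of 337 and 4802. All 337 called genes had arrays that did not overlap between the groups, against 27.4% of all genes. The calls and the overlap rest on the same values, so this is no further support for the calls.

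The count of 337 moved with single arrays. It was 64, 62 and 53 without WT chow replicate 1, 2 or 3, and 61 and 31 without KO HFD replicate 2 or 3. It was 618 without KO chow replicate 2, 224 without KO chow replicate 3 and 133 without WT HFD replicate 3, which act only through the pooled spread. Of the 337 calls themselves, 61, 56 and 50 were shared by the fits without WT chow replicate 1, 2 or 3, and 59 and 30 by those without KO HFD replicate 2 or 3. With each array centred on its median, which moved the median of all genes from -0.005 to 0.075, 621 genes were higher and 119 lower, so the split between higher and lower calls depends on the scaling.

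**Figure D1:**
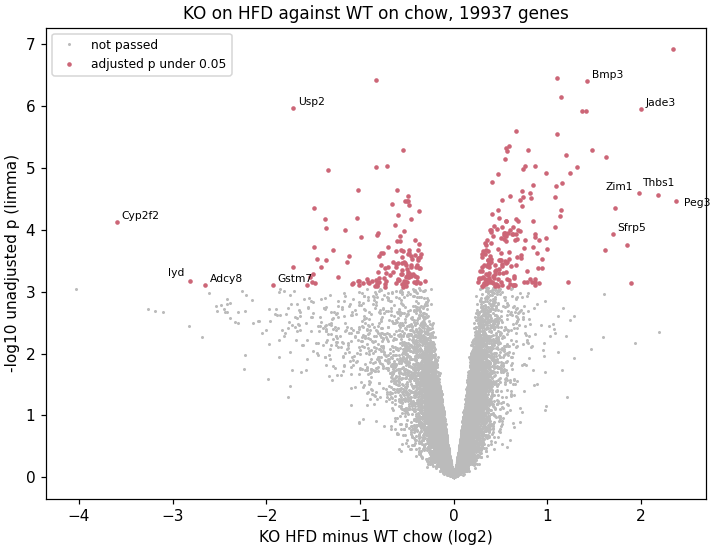
Each point is 1 of 19937 genes; the x axis is KO HFD minus WT chow on the log2 scale and the y axis is -log10 of limma's unadjusted p. The 337 coloured genes passed at an adjusted p under 0.05; the grey points at the far left are large falls that did not pass, led by Cuzd1 at -4.03.

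The 12 largest rises in KO HFD are described with their values by role, and the grouping was made after they were seen. Peg3, an imprinted gene for a zinc finger protein, lay at 8.13, 8.03 and 6.65 in WT chow and at 10.10, 9.74 and 10.09 in KO HFD. It rose by 2.37 ± 0.36 (adjusted p = 0.014). Every KO HFD array was above every WT chow array, and WT chow replicate 3 was the lowest. Without that array the rise was 1.90, with an adjusted p of 0.022. Without KO HFD replicate 3 the adjusted p was 0.086. Zim1, another imprinted zinc finger gene, is the next protein-coding gene to Peg3, with 0 others between them in RefSeq's GRCm38.p6 annotation. It lay at 4.63, 4.55 and 4.70 in WT chow and at 7.50, 6.04 and 6.25 in KO HFD, a rise of 1.98 ± 0.29 (adjusted p = 0.013). KO HFD replicate 1 was highest, and without it the rise was 1.52 (adjusted p = 0.0007). Without WT chow replicate 2 the call was lost by a small margin (adjusted p = 0.051). Peg10, an imprinted gene derived from a retrotransposon, rose from 7.25, 7.45 and 7.14 to 8.45, 8.68 and 9.13 (1.47 ± 0.18, adjusted p = 0.0062), with no overlap. Its call held in each of the 12 fits that left out 1 array. KO chow lay at 7.91, 7.82 and 7.66, above every WT chow array. KO HFD against KO chow gave a rise of 0.95 (adjusted p = 0.02). Mest, an imprinted gene used as a marker of fat expansion, lay at 12.10, 12.00 and 10.37 in WT chow and at 12.54, 12.55 and 12.73 in KO HFD. It did not pass (1.12 ± 0.36, adjusted p = 0.12), and without WT chow replicate 3 its difference was 0.56.

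Bmp3 and Sfrp5 encode secreted proteins of signalling pathways. Bmp3, a ligand of the bone morphogenetic protein family, had 7.89, 7.62 and 8.09 in WT chow and 9.01, 9.43 and 9.43 in KO HFD. It rose by 1.43 ± 0.14 with the smallest adjusted p of this comparison (0.0019), and passed in each fit without 1 array. KO chow lay at 8.37, 8.56 and 8.30, above every WT chow array. KO HFD against KO chow gave a rise of 0.88 (adjusted p = 0.012). Sfrp5, a secreted inhibitor of Wnt ligands made by adipocytes, had 7.74, 8.03 and 8.75 in WT chow and 9.68, 9.69 and 10.24 in KO HFD. It rose by 1.70 ± 0.30 (adjusted p = 0.024), and lost its call without WT chow replicate 1 or 2 or KO HFD replicate 2 or 3 (adjusted p of up to 0.12). Of the 15 genes of the adipose expansion list, Peg3, Sfrp5 and Bmp3 rose, 0 fell and 12 did not pass. The list's median was 0.36, against -0.005 over all genes. Leaving out single arrays gave 1 to 4 rises and at most 1 fall, and medians of 0.32 to 0.49.

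The remaining large rises came from genes of several roles. Thbs1, which encodes the matricellular protein thrombospondin 1, had 9.0, 9.58 and 9.03 in WT chow and 11.45, 11.16 and 11.54 in KO HFD (2.18 ± 0.32, adjusted p = 0.013). Its relative Thbs2 had 7.86, 7.86 and 7.79 in WT chow and 10.19, 9.43 and 9.06 in KO HFD (1.72 ± 0.27, adjusted p = 0.016). Neither gene's groups overlapped, and KO HFD replicate 1 was highest for Thbs2. Without it Thbs2 rose by 1.41 (adjusted p = 0.015). Jade3, a subunit of a histone acetyltransferase complex, rose by 2.00 ± 0.21 (adjusted p = 0.0027), from 6.76 to 7.19 in WT chow to 8.56 to 9.48 in KO HFD. Slc5a7, a choline transporter, rose by 1.90 ± 0.41, Lctl by 1.85 ± 0.34, Dock8, a guanine nucleotide exchange factor of leukocytes, by 1.63 ± 0.21, and the palmitoyltransferase Zdhhc2 by 1.62 ± 0.30, at adjusted p of 0.007 to 0.047. Jade3 and Dock8 passed in each fit without 1 array. Thbs1 lost its call in 3 of those 12 fits, Thbs2 in 4, Lctl in 5, Zdhhc2 in 6 and Slc5a7 in 8, with adjusted p of up to 0.18.

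Usp2, a deubiquitinase that cycles with the clock, was the only one of the 12 largest falls to pass in each fit without 1 array. It lay at 8.76, 9.22 and 9.0 in WT chow and at 7.75, 7.12 and 6.97 in KO HFD, and fell by 1.71 ± 0.18 (adjusted p = 0.0027). Cyp2f2, a cytochrome P450, fell by 3.60 ± 0.59 (adjusted p = 0.021). It varied widely in WT chow (10.16, 8.86 and 11.82) and stood at 7.20, 6.40 and 6.46 in KO HFD, without overlap. Without WT chow replicate 3 it fell by 2.82. Its call was lost without WT chow replicate 1 or KO HFD replicate 2 or 3 (adjusted p of up to 0.11), and narrowly with only these groups fitted (0.051). Tst, the mitochondrial thiosulfate sulfurtransferase, fell from 9.0, 9.36 and 9.49 to 8.36, 7.44 and 7.58 (-1.49 ± 0.23, adjusted p = 0.016), and lost its call in 4 of the 12 fits without 1 array. Sfrp1, another secreted Wnt inhibitor, fell by 1.51 ± 0.31, Cpxm2 by 1.57 ± 0.34, Sectm1a by 1.53 ± 0.32 and the metallothionein Mt3 by 1.49 ± 0.27 (adjusted p of 0.031 to 0.048). Each of these 4 lost its call in 6 to 9 of the 12 fits without 1 array, and when these groups alone were fitted. Sfrp1 stood at 8.28, 8.04 and 8.63 in KO chow, below every WT chow array. Against KO chow, KO HFD did not pass for Sfrp1 (-0.85, adjusted p = 0.13) or Cpxm2 (-1.24, adjusted p = 0.057).

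In a further set of large falls, too, KO HFD replicate 1 stood apart from the other KO HFD arrays. Iyd, the iodotyrosine deiodinase, lay at 8.06, 9.29 and 8.05 in WT chow. In KO HFD it was 7.27 in replicate 1 but 4.87 and 4.81 in the others, against 4.72 to 4.84 in WT HFD. It fell by 2.82 ± 0.61 (adjusted p = 0.047), and by 3.63 without KO HFD replicate 1 (adjusted p = 0.0051). Adcy8, an adenylyl cyclase, had 8.28, 9.09 and 7.84 in WT chow and 7.35, 4.94 and 4.94 in KO HFD. It fell by 2.66 ± 0.58 (adjusted p = 0.048), and by 3.46 without KO HFD replicate 1 (adjusted p = 0.0044). Iyd lost its call in 8 and Adcy8 in 10 of the 12 fits without 1 array (adjusted p of up to 0.2). Gstm7, Tlcd4 and Fgfr4 fell by 1.93 ± 0.42, 1.71 ± 0.34 and 1.52 ± 0.33 (adjusted p of 0.04 to 0.048) with the same array highest, and without it by 2.39, 2.08 and 1.81 (adjusted p of 0.012 to 0.022). They lost their calls in 10, 7 and 7 of the 12 fits without 1 array, and when these groups alone were fitted (0.064, 0.054 and 0.059). Epcam, a surface marker of epithelium, had 8.29, 9.17 and 7.96 in WT chow and 7.53, 4.89 and 5.14 in KO HFD. It did not pass (-2.62 ± 0.60, adjusted p = 0.053), but it fell by 3.46 without KO HFD replicate 1 (adjusted p = 0.0044). Krt8 and Krt18, keratins of simple epithelium, and the adherens junction gene Cdh1 had differences of -1.65, -1.26 and -1.08 and did not pass. Without KO HFD replicate 1, Krt8 fell by 2.08 (adjusted p = 0.038) and Cdh1 by 1.42 (adjusted p = 0.024), while Krt18 had -1.54 (adjusted p = 0.062).

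The largest difference of all that did not pass, Cuzd1, was named after its values were seen. It lay at 10.47, 10.91 and 9.77 in WT chow and at 9.19, 4.92 and 4.94 in KO HFD (-4.03, adjusted p = 0.051). Without KO HFD replicate 1 it fell by 5.45 (adjusted p = 0.00033). Of the 12 mammary and salivary epithelium markers 0 passed by limma and 2 had an unadjusted p under 0.05. Their mean level was 5.79 to 5.93 in WT chow and 5.48 to 5.71 in KO HFD. The median difference of the list was nevertheless 0.05, so the lower mean level does not describe the list as a whole. Without KO HFD replicate 1, 2 of the 12 fell and the median was 0.07. Of 13 mesothelial markers 0 passed and 2 had an unadjusted p under 0.05, with mean levels of 8.40 to 9.35 and 8.03 to 8.86. Of 11 epididymis and male tract markers 0 passed and 2 had an unadjusted p under 0.05, with mean levels of 4.18 to 4.26 and 4.11 to 4.14, near the low end of the table. Their part in the falls was not tested.

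**Figure D2:**
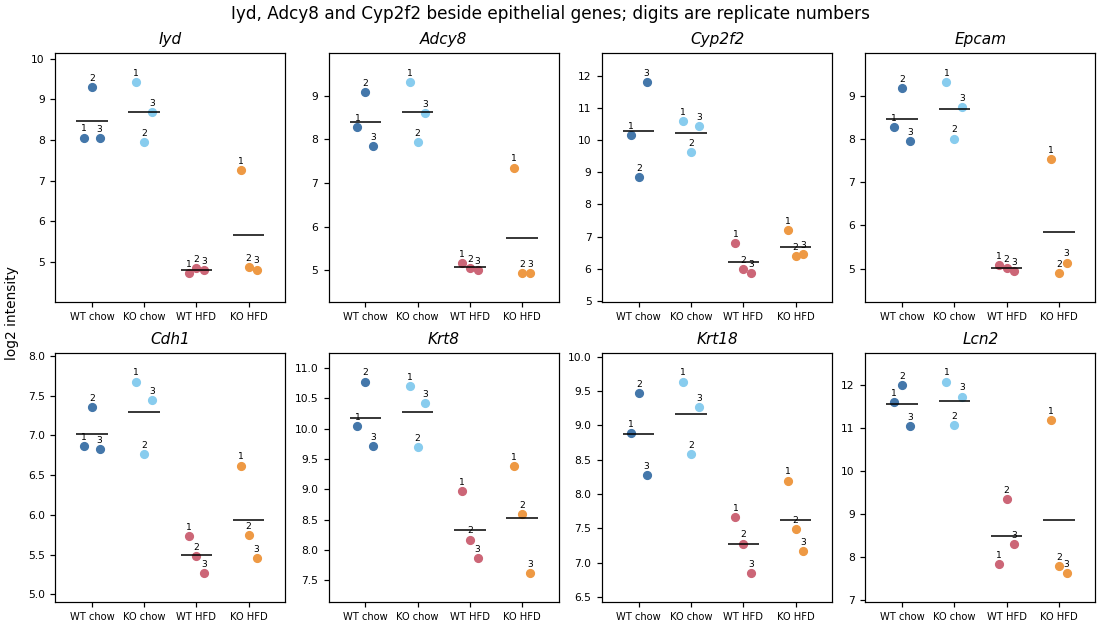
Log2 intensity (y axis) of Iyd, Adcy8, Cyp2f2 and 5 epithelial genes in the 4 groups (x axis); points are arrays with their replicate number and lines are means of 3. KO HFD replicate 1 sits near the chow arrays for Iyd (7.27) and Epcam (7.53), while replicates 2 and 3 sit near WT HFD.

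To see which diet changes remained, the 936 genes that the diet moved by over 2-fold in WT (491 higher, 2.46% of all genes, and 445 lower, 2.23%) were followed in KO HFD. Both comparisons use the same WT chow arrays, so the classes below are a description with no test of their own. A change was counted as kept where KO HFD differed from WT chow in the same direction and not from WT HFD. That held for 56 genes (5.98%), 19 higher and 37 lower. It was partly kept, differing from both, for 18 genes (1.92%), 12 higher and 6 lower. It was absent, with KO HFD called apart from WT HFD and not from WT chow, for 520 genes (55.6%), 412 higher and 108 lower. In 420 of these 520 the 95% interval of KO HFD minus WT chow lay within 2-fold either way. Against WT chow the absent rises had a median of 0.08 in KO HFD and the absent falls -0.34. Absent therefore names a rule and does not mean the same level as in WT chow. The remaining 342 genes (36.5%), 48 higher and 294 lower, were unresolved, and in 340 of them KO HFD passed against neither group.

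The 491 raised genes had a median of 1.33 in WT HFD against WT chow, but 0.14 in KO HFD against WT chow and 0.27 in KO HFD against KO chow. The 445 lowered genes had -1.43, -0.99 and -1.09 in the same comparisons. KO HFD against KO chow shares no array with the WT comparison that chose the genes. In it 45 of the 491 rose (9.16%, against 2.8% of all genes) and 246 of the 445 fell (55.3%, against 3.54%), with 0 called the other way. However, this comparison and the WT comparison take their spread from the same fit of all arrays. Genes that passed in WT may therefore carry a small pooled spread into this comparison. That can raise both shares, by an amount that was not tested. The medians against WT chow were 0.095 to 0.221 for the raised genes and -1.18 to -0.715 for the lowered genes over the alternative settings and the fits without 1 array.

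KO HFD replicate 1 had less of both shifts. Among the 445 lowered genes its median difference from the WT chow mean was -0.57, against -1.14 and -1.23 in replicates 2 and 3. It was the highest of the 3 arrays for 394 of them (88.5%), against 33.9% of all genes. Among the 294 unresolved lowered genes it was the highest for 275 (93.5%). Among the 491 raised genes its median was 0.06, against 0.15 and 0.20. Without this array 171 lowered genes were kept in place of 37, 45 were absent in place of 108, and 199 genes were kept in all. Without KO chow replicate 2, 161 were kept. Without WT chow replicate 1, 2 or 3 it was 21, 19 and 15, without KO HFD replicate 2 or 3 it was 14 and 11, and without KO chow replicate 3 or WT HFD replicate 3 it was 36 and 30. The absent class held 830 genes without WT HFD replicate 1 and 281, 301 and 313 without WT HFD replicate 2, WT HFD replicate 3 or KO HFD replicate 1.

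**Figure D3:**
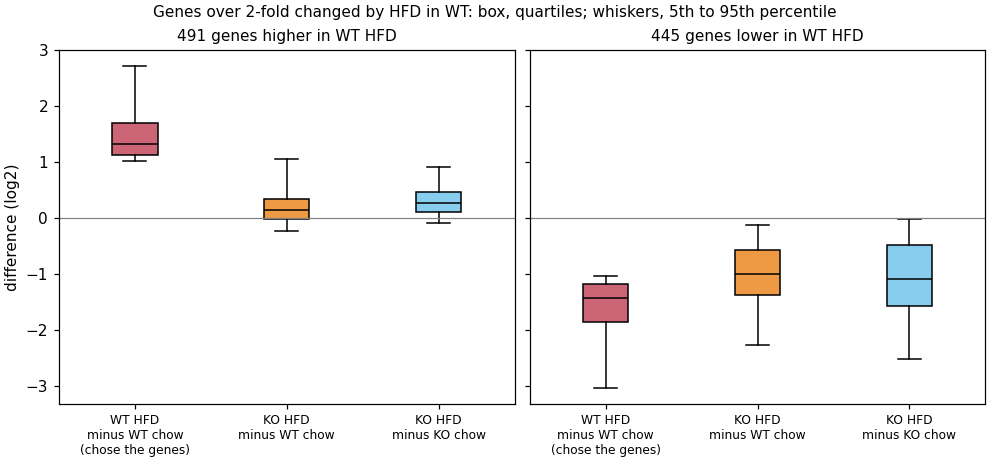
Differences on the log2 scale (y axis) for genes that the diet moved over 2-fold in WT, 491 higher (left) and 445 lower (right), in 3 comparisons (x axis); boxes span the quartiles with the median, whiskers the 5th to 95th percentile. The left medians fall from 1.33 to 0.14 and 0.27, while the right medians go from -1.43 to -0.99 and -1.09.

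Kept rises, beside Peg3, Thbs1 and Sfrp5, included Vgll3, a cofactor of TEAD transcription factors. It had 7.71, 7.88 and 8.03 in WT chow, 9.89, 9.35 and 9.47 in WT HFD and 8.87, 9.49 and 9.21 in KO HFD (1.32 ± 0.17 against WT chow, adjusted p = 0.0078). Synpo2, an actin-binding protein, rose by 1.19 ± 0.15 (adjusted p = 0.0069). Both passed in each fit without 1 array. Pde7a, a cyclic AMP phosphodiesterase, rose by 1.14 ± 0.18 (adjusted p = 0.016), and lost its call in 4 of those fits. Kept falls included Cyp2f2, Iyd, Adcy8, Gstm7, Tlcd4 and Ppp1r3c, a subunit that targets a phosphatase to glycogen (-1.42 ± 0.28, adjusted p = 0.04). Ppp1r3c stood at 7.44, 8.41 and 8.15 in KO chow, against 8.92, 9.08 and 9.35 in WT chow and 7.81, 7.33 and 7.96 in KO HFD.

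Partly kept changes lay between WT chow and WT HFD. Slc5a7 had 5.87, 5.69 and 5.08 in WT chow, 6.64, 8.23 and 7.46 in KO HFD and 9.20, 10.32 and 10.48 in WT HFD, with no overlap between the 3 groups. Col12a1, a collagen that binds to fibrils, rose by 0.84 ± 0.12 in KO HFD (adjusted p = 0.012) and by 1.99 in WT HFD. Abcg1, a cholesterol exporter of macrophages and other cells, rose by 0.78 ± 0.17 (adjusted p = 0.047) and by 1.44. Gask1b, Dock8 and Lctl belonged to the same class. Among the partly kept falls, Tst fell by 1.49 in KO HFD and by 2.29 in WT HFD. Sh2b2, an adaptor of receptor kinases, fell by 0.72 ± 0.16 and 1.29, Mocs1 by 0.65 ± 0.13 and 1.16, and Oplah by 0.58 ± 0.10 and 1.05. Ralgapa2 and Rhobtb1 fell by 0.70 and 0.52 in KO HFD. With 1 array left out the partly kept class held 0 to 35 genes, so membership in it is poorly fixed.

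Among the absent rises with the largest change in WT, Gpr50, an orphan receptor, had 4.21, 4.31 and 4.26 in WT chow, 4.05, 4.18 and 4.21 in KO HFD and 6.78, 9.28 and 10.14 in WT HFD. Atp6v0d2, a proton pump subunit of osteoclasts and macrophages, had 7.39, 5.58 and 6.40 in WT chow, 6.03, 5.87 and 6.61 in KO HFD and 9.14, 12.05 and 11.43 in WT HFD. Mmp12, the macrophage elastase, had 8.63, 7.17 and 8.03, then 7.58, 7.91 and 8.47, then 11.33, 13.00 and 12.47 in the same order of groups. Its difference between KO HFD and WT chow was 0.04, with a 95% interval of -0.99 to 1.07. Tm4sf19, Ubd and Lipf, at 3.79 to 4.44 in WT HFD against WT chow, had -0.11, 0.23 and 0.52 in KO HFD against WT chow. The intervals of Gpr50, Tm4sf19, Atp6v0d2 and Ubd reached beyond 2-fold on both sides in the fit with all arrays, whose pooled spread takes in the wide WT HFD arrays. With KO HFD and WT chow alone the intervals were -0.28 to 0.06 for Gpr50, -0.79 to 0.58 for Tm4sf19 and -0.43 to 0.88 for Ubd, all within 2-fold. That of Atp6v0d2 was -1.28 to 0.71 and still passed 2-fold on the lower side. The interval of Lipf in this fit was -0.57 to 1.6 and passed 2-fold on the upper side.

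Of the 23 macrophage markers 0 passed between KO HFD and WT chow by limma, and 1 had an unadjusted p under 0.05. The median was 0.03, where WT HFD against WT chow gave 19 rises and a median of 0.74. Itgax, the CD11c integrin of adipose macrophages, had 6.57, 6.38 and 6.74 in WT chow, 6.20, 6.60 and 6.99 in KO HFD and 8.96, 11.31 and 10.61 in WT HFD. Cd68, a pan-macrophage gene, had 10.44, 9.97 and 10.03 in WT chow and 10.28, 10.20 and 10.33 in KO HFD (0.12, 95% interval -0.55 to 0.79). Adgre1, a macrophage surface receptor, had a difference of 0.17 with an interval of -0.55 to 0.90. Their arrays overlapped. The list's mean level was 9.21 to 9.50 in WT chow, 9.31 to 9.35 in KO HFD and 10.01 to 10.74 in WT HFD. With any 1 array left out, 0 of the 23 passed and the median stayed between -0.07 and 0.07.

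The 23 lipid-laden macrophage and lysosome genes gave 0 calls and 0 at an unadjusted p under 0.05 against WT chow (median 0.03), and 18 rises in WT HFD. Gpnmb had 9.25, 7.89 and 8.35 in WT chow and 8.30, 7.93 and 8.50 in KO HFD, against 10.76, 12.91 and 12.36 in WT HFD. Trem2, a lipid receptor of these macrophages, stood apart within the list. It had 7.30, 7.14 and 6.86 in WT chow and 8.51, 7.94 and 8.48 in KO HFD without overlap, but did not pass (1.21 ± 0.55, adjusted p = 0.26), except where KO HFD and WT chow alone were fitted (0.034). KO chow spanned 6.65 to 8.35. Of 24 cell cycle genes 0 passed and 1 had an unadjusted p under 0.05 (median 0.09), where WT HFD had 21 rises and a median of 1.14. Mki67 lay at 5.56, 5.69 and 5.64 in WT chow and at 5.71, 5.70 and 5.68 in KO HFD, against 6.54, 7.71 and 7.47 in WT HFD. Of 10 genes for MHC class II antigen presentation 0 passed in KO HFD, with 0 at an unadjusted p under 0.05, and 8 rose in WT HFD. Of 17 complement genes 0 passed, with 3 at an unadjusted p under 0.05, and 10 rose in WT HFD.

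Of 24 cytokines and chemokines 1 rose in KO HFD, 0 fell and 23 did not pass (median -0.006), where 11 rose in WT HFD. The gene that rose was Ccl11, which encodes eotaxin, from 9.84, 9.60 and 9.30 to 10.06, 10.45 and 10.47 (0.75 ± 0.16, adjusted p = 0.047). Ccl2, the monocyte chemoattractant, lay at 6.33, 6.54 and 5.72 in WT chow and at 6.12, 7.02 and 6.43 in KO HFD with overlap (0.33 ± 0.25, adjusted p = 0.52). Ccl8 had -0.90 ± 0.25 (adjusted p = 0.084) and Tnf 0.15 ± 0.19 (adjusted p = 0.73). Of 19 interferon response genes Ifit2 rose (0.67 ± 0.12, adjusted p = 0.026) and 18 did not pass. Ccl11 lost its call in 8 of the 12 fits without 1 array and Ifit2 in 5.

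**Figure D4:**
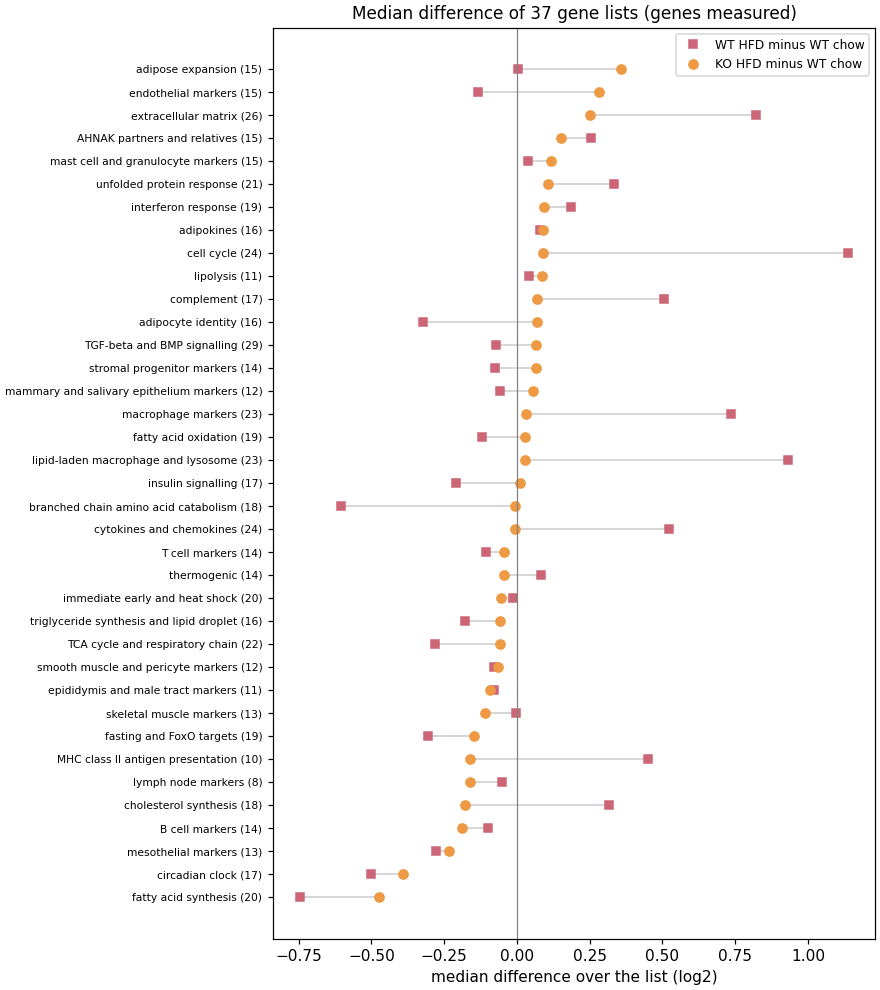
Median log2 difference (x axis) over the measured genes of each of 37 lists (y axis, with the number of genes) for KO HFD minus WT chow (circles) and WT HFD minus WT chow (squares), joined by a line. Macrophage (0.03 against 0.74) and cell cycle (0.09 against 1.14) lists sit near 0 in KO HFD, while fatty acid synthesis (-0.47 against -0.74) and circadian clock (-0.39 against -0.50) have the lowest medians in both comparisons bar branched chain amino acid catabolism in WT HFD (-0.61).

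Absent falls included metabolic genes of the adipocyte and of other cells. Acsm3, a mitochondrial acyl-CoA synthetase, had 8.69, 8.72 and 8.42 in WT chow, 8.87, 8.06 and 8.32 in KO HFD and 7.13, 4.99 and 4.94 in WT HFD. Dennd2d had a difference of -0.46 between KO HFD and WT chow, against -2.90 in WT HFD. Adgrg2, Inmt, Nt5e and Gsta4, a glutathione transferase for lipid aldehydes, had differences of -0.85 to -1.10 against WT chow that did not pass (adjusted p of 0.18 to 0.25), with 95% intervals that lay below 0. All 4 were called higher than in WT HFD, so they are in the absent class although their level against WT chow is not settled. With KO HFD and WT chow alone, Gsta4 fell (adjusted p = 0.022).

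Genes of branched chain amino acid catabolism, low in WT HFD, gave 1 call in KO HFD. Of 18 genes 1 rose, 0 fell and 17 did not pass, with 2 at an unadjusted p under 0.05 and a median of -0.005. In WT HFD 14 of the 18 fell (median -0.61). Bckdhb, a subunit of the branched chain ketoacid dehydrogenase, had 9.75, 9.67 and 9.85 in WT chow, 9.79, 10.03 and 9.69 in KO chow, 9.55, 8.96 and 9.25 in WT HFD and 10.94, 10.54 and 11.02 in KO HFD. KO HFD was above every array of the other groups. It rose by 1.08 ± 0.16 against WT chow (adjusted p = 0.013), where WT HFD fell by 0.50. Its call was lost without WT chow replicate 1 or 2 or KO HFD replicate 3 (adjusted p of up to 0.083). The partner subunit Bckdha had -0.01 (adjusted p = 0.98) and the acyltransferase subunit Dbt 0.09 (adjusted p = 0.84). Morn4, named after its values were seen, also rose in KO HFD and fell in WT HFD. It had 7.41, 7.48 and 7.22 in WT chow, 8.22, 8.12 and 8.12 in KO chow, 6.57, 5.8 and 5.96 in WT HFD and 8.22, 8.11 and 8.11 in KO HFD, level with KO chow (0.78 ± 0.16 against WT chow, adjusted p = 0.043).

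The TCA cycle and respiratory chain list had 22 genes, of which 0 passed against WT chow, with 1 at an unadjusted p under 0.05 (median -0.06). In WT HFD 15 of them fell. Of 19 fatty acid oxidation genes 0 passed, with 3 at an unadjusted p under 0.05 (median 0.03). Of 17 insulin signalling genes 0 passed, with 2 at an unadjusted p under 0.05, and 6 fell in WT HFD. The transcription factor Foxo1 had -0.31 (adjusted p = 0.41) and the kinase Akt2 0.16 (adjusted p = 0.49). Among 16 adipocyte identity genes only Cidea, a lipid droplet protein, passed. It fell from 6.30, 6.37 and 6.68 to 5.52, 5.68 and 5.69 (-0.82 ± 0.18, adjusted p = 0.048), without overlap, and lost its call in 9 of the 12 fits without 1 array. Adipoq (0.16), Fabp4 (0.08), Pparg (-0.08) and Cebpa (0.07) did not pass. Lep, which encodes leptin, lay at 12.01, 12.09 and 12.26 in WT chow, 12.34, 12.75 and 12.46 in KO HFD and 13.00, 12.90 and 13.08 in WT HFD. KO HFD stood between the other groups without overlap, and the difference from WT chow was 0.40 ± 0.12 (adjusted p = 0.11). Of 16 triglyceride synthesis and lipid droplet genes 0 passed, with 2 at an unadjusted p under 0.05. Of 11 lipolysis genes Ffar2, a receptor for short chain fatty acids, rose by 0.99 ± 0.13 (adjusted p = 0.0082), from 7.34, 7.26 and 6.99 to 8.14, 8.18 and 8.23, and 10 did not pass. Its call was lost without KO HFD replicate 3 (adjusted p = 0.055). Among 14 thermogenic genes Cidea fell and 13 did not pass. Ucp1 lay at 4.50 to 4.54 in WT chow and 4.48 to 4.56 in KO HFD.

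Fatty acid synthesis had the lowest median of the 37 lists but few calls. Of 20 genes 2 fell, 0 rose and 18 did not pass, with 11 at an unadjusted p under 0.05 and a median of -0.47. In WT HFD 12 fell (median -0.74). Fads1, a desaturase of long chain fatty acids, lay at 10.89, 11.04 and 10.69 in WT chow and at 10.38, 9.95 and 9.96 in KO HFD, and fell by 0.77 ± 0.15 (adjusted p = 0.034). The pentose phosphate enzyme Tkt fell from 11.88, 11.92 and 11.85 to 11.27, 11.48 and 11.53 (-0.46 ± 0.09, adjusted p = 0.039), while KO chow stood at 12.50, 12.57 and 12.27. Fasn, the fatty acid synthase, had 13.02, 13.08 and 12.77 in WT chow and 12.02, 12.54 and 12.52 in KO HFD. Its groups did not overlap, and the difference was -0.60 ± 0.15 (adjusted p = 0.067). Fads2 had -1.32 ± 0.31 (adjusted p = 0.055), with KO HFD replicate 1 highest, and fell by 1.65 without it (adjusted p = 0.017). With KO HFD and WT chow alone 0 of the 20 fell. With 1 array left out 0 to 3 fell, with 0 in the 5 fits without a WT chow replicate or without KO HFD replicate 2 or 3, and the median lay between -0.57 and -0.34. Of 18 cholesterol synthesis genes 0 passed, with 5 at an unadjusted p under 0.05. The fasting and FoxO target Ddit4, an inhibitor of mTORC1, fell from 8.44, 8.77 and 9.20 to 7.50, 7.60 and 7.44 (-1.29 ± 0.24, adjusted p = 0.033). It was as low in KO chow (7.58, 7.06 and 7.94) and in WT HFD (7.73, 7.09 and 7.60). It lost its call in 5 of the 12 fits without 1 array. The other 18 genes of its list did not pass.

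Circadian clock genes form a feedback loop in which CLOCK and ARNTL drive genes through the E-box, and the products of Per and Cry genes restrain them. Of 17 clock genes 3 fell in KO HFD, 0 rose and 14 did not pass, with 11 at an unadjusted p under 0.05 and a median of -0.39. In WT HFD 12 fell and 2 rose (median -0.50). Nfil3, a repressor of D-box genes, had 7.46, 7.41 and 7.31 in WT chow and 6.53, 6.81 and 6.68 in KO HFD. It fell by 0.72 ± 0.09 (adjusted p = 0.0078), and passed in every fit without 1 array (adjusted p of up to 0.048). Cry1 fell from 7.31, 7.42 and 7.44 to 7.04, 6.81 and 6.88 (-0.48 ± 0.09, adjusted p = 0.034). Rora, which activates Arntl, fell by 0.41 ± 0.07 (adjusted p = 0.026). Ciart, a repressor of the CLOCK complex, had 7.19, 7.64 and 7.62 in WT chow and 6.78, 6.37 and 6.37 in KO HFD, and did not pass (-0.97 ± 0.23, adjusted p = 0.061). Arntl, which rose by 1.20 in WT HFD, had 0.005 in KO HFD (adjusted p = 0.99). Per3, Dbp, Tef and Hlf had -0.59, -0.36, -0.39 and -0.64 at adjusted p of 0.063 to 0.098, against -1.20 to -1.72 in WT HFD. All 4 belonged to the absent class by its rule, although their level against WT chow is not settled. Cry1 lost its call in 6 and Rora in 5 of the fits without 1 array, in which 1 to 5 of the 17 genes fell. The sources used here do not give the hour at which tissue was taken.

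Since several clock genes were low together, their promoters were searched for the E-box CACGTG, which reads the same on both strands. RefSeq's promoters of assembly GRCm38.p6 run from 250 bases before to 50 after the start of a gene, and 15 of the 17 clock genes matched. The motif lay in 5 of the 15 (33.3%), Per1, Cry1, Tef, Bhlhe41 and Ciart, against 8.09% of 27025 genes. It was missing from the promoters of Nfil3 and Rora, which fell, and from those of Per3, Dbp and Hlf. The share describes a list chosen for the clock, and a link between the motif and the falls was not tested. The promoters of Cry1 and Ciart are shown 5′ to 3′, with the E-box in capitals, because Cry1 fell and Ciart had the largest difference of the list. Both lie on the minus strand, Cry1 at chr10:85185005-85185304 with 1 match and Ciart at chr3:95882179-95882478 with 3. A match describes the sequence and is not a bound site.
Cry1: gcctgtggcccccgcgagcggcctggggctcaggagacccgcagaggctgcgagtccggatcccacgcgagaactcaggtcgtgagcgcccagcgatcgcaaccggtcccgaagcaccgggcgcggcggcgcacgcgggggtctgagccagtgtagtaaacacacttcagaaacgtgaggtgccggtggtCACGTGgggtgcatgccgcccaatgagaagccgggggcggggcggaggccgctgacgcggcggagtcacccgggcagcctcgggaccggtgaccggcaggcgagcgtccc
Ciart: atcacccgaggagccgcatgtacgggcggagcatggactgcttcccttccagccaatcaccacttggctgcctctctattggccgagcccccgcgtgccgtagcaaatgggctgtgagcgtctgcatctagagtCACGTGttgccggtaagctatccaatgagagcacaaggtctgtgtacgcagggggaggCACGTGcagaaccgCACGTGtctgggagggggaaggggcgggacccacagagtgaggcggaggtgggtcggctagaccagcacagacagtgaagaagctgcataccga

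Few extracellular matrix genes passed, though more than the 0.973% of all genes that were called higher. Of 26 genes 4 rose in KO HFD, 0 fell and 22 did not pass (median 0.25), where 21 rose in WT HFD (median 0.82). Beside Thbs1 and Thbs2, the basement membrane collagen Col18a1 rose by 0.36 ± 0.08 (adjusted p = 0.046). Col6a1, a chain of collagen VI, rose from 10.67, 10.47 and 10.32 to 10.84, 11.31 and 11.24 (0.64 ± 0.14, adjusted p = 0.047). Col6a3, another chain of it, had 8.89, 8.70 and 8.59 in WT chow and 8.85, 9.25 and 8.84 in KO HFD with overlap. Its difference was 0.25 ± 0.15 (adjusted p = 0.39), against 1.59 in WT HFD. Timp1 had 0.10 (adjusted p = 0.94) against 2.55. Col18a1 and Col6a1 each lost their call in 8 of the 12 fits without 1 array, with quantile scaling and with the replicate number as a block. Both also lost it with KO HFD and WT chow alone (adjusted p of 0.063 and 0.072), where 2 of the 26 rose. With 1 array left out 0 to 7 of the 26 rose, with 0 without WT chow replicate 1 or 3. Of 29 genes of TGF-beta and BMP signalling Bmp3 rose and 28 did not pass, with 11 at an unadjusted p under 0.05. Of 21 unfolded protein response genes Edem1 rose by 0.48 ± 0.10 (adjusted p = 0.044), 20 did not pass, and 13 rose in WT HFD. Edem1 lost its call in 7 of the 12 fits without 1 array, with KO HFD and WT chow alone, with quantile scaling and with the replicate number as a block.

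Among 15 partners and relatives of AHNAK, Anxa2, which encodes annexin A2, rose from 12.30, 12.21 and 12.12 to 12.59, 12.76 and 12.93 (0.55 ± 0.10, adjusted p = 0.024). It rose by 0.67 in WT HFD, and its call in KO HFD was lost in 5 of the 12 fits without 1 array. Anxa6 and Anxa1 had 0.35 and 0.32 (adjusted p of 0.057 and 0.099), and 14 of the 15 did not pass. Among 16 adipokines Sfrp5 rose and 15 did not pass. Lcn2, made by epithelium, immune cells and adipocytes, had -2.69 ± 0.78 (adjusted p = 0.092), with 11.17 in KO HFD replicate 1 and 7.78 and 7.62 in the others. Without replicate 1 it fell by 3.84 (adjusted p = 0.0044).

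**Figure D5:**
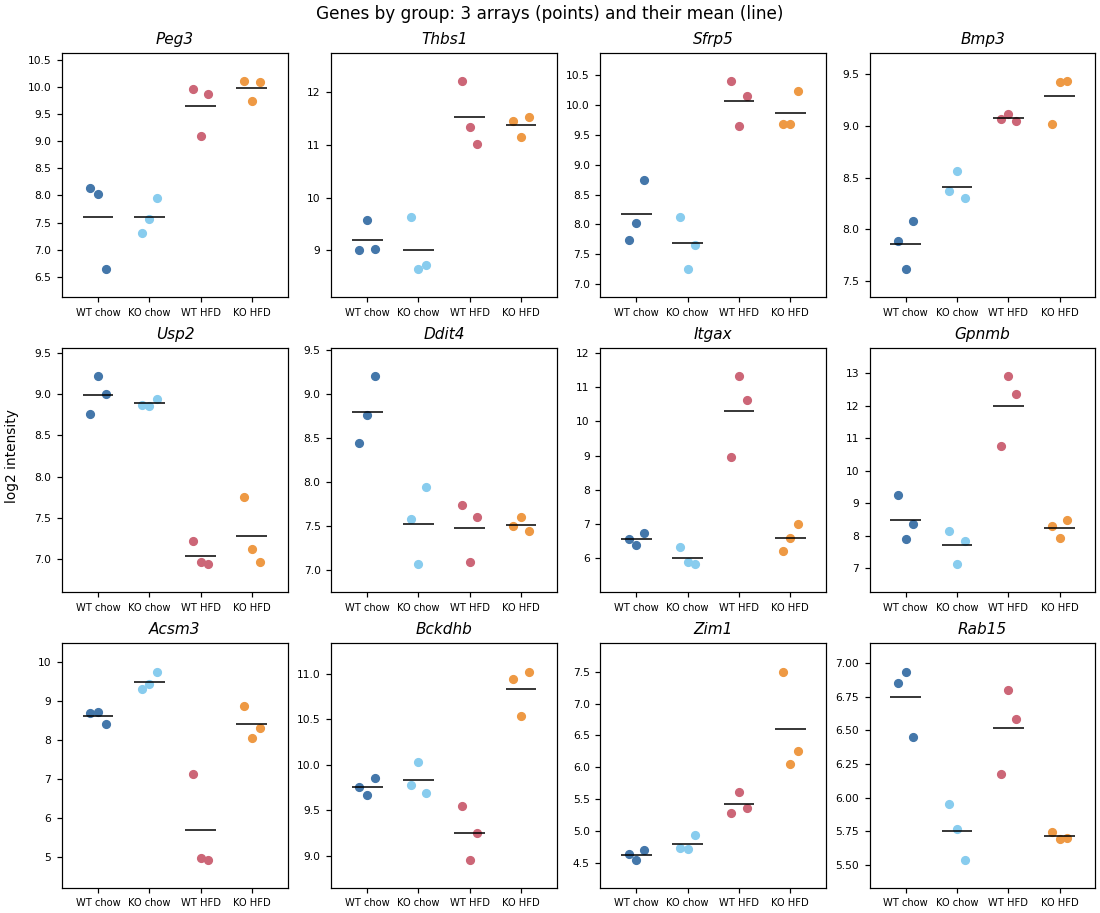
Log2 intensity (y axis) of 12 genes in the 4 groups (x axis), with 3 arrays as points and their mean as a line. KO HFD joins WT HFD for Peg3, Thbs1, Sfrp5, Bmp3 and Usp2, and stays with chow for Itgax, Gpnmb and Acsm3. It stands above all other groups for Bckdhb and Zim1. For Ddit4 it lies with both WT HFD and KO chow.

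Genes that changed by over 2-fold in KO HFD and not in WT HFD were few. The rule asked for a call against WT chow and a call against WT HFD in the same direction, with none for WT HFD against WT chow, and 4 genes met it. Zim1 lay at 5.29 to 5.61 in WT HFD (0.79 against WT chow, adjusted p = 0.07), between the other groups. Btc, which encodes the growth factor betacellulin, had 7.51, 7.41 and 7.64 in WT chow, 7.82, 7.83 and 7.48 in WT HFD and 8.95, 8.14 and 8.86 in KO HFD. It rose by 1.13 ± 0.18 (adjusted p = 0.019). Olfml3, a secreted matrix glycoprotein, had 9.69, 9.69 and 9.64 in WT chow, 9.35, 9.37 and 9.72 in WT HFD and 8.86, 8.42 and 8.26 in KO HFD. It fell by 1.16 ± 0.20 (adjusted p = 0.024). Rab15, a small GTPase of endosomes, fell by 1.03 ± 0.17 (adjusted p = 0.02), from 6.85, 6.94 and 6.45 to 5.75, 5.69 and 5.70. WT HFD had 6.18, 6.80 and 6.58. KO chow had 5.96, 5.77 and 5.54, with a difference of -0.04 between both KO groups. Btc and Rab15 lost their calls in 4 of the 12 fits without 1 array, Olfml3 in 5 and Zim1 in 1.

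Other cell types gave few calls. Of 14 B cell markers Pou2af1 (-0.59 ± 0.12, adjusted p = 0.038) and Cd79b (-0.46 ± 0.10, adjusted p = 0.047) fell and 12 did not pass. They lost their calls in 8 and 9 of the fits without 1 array. In 21 of the 37 lists 0 genes passed by limma, with 41 of their 336 entries (12.2%, against 19.1% of all genes) at an unadjusted p under 0.05 and medians from -0.23 to 0.28. Among these, 4 of the 15 mast cell and granulocyte markers had an unadjusted p under 0.05, and the list's median was 0.12. Cpa3, a mast cell protease, had 6.94, 7.20 and 5.73 in WT chow and 8.38, 8.0 and 8.25 in KO HFD (1.59 ± 0.46, adjusted p = 0.092). Mcpt4 had 1.46 ± 0.46 (adjusted p = 0.11), with WT chow replicate 3 lowest in both. The other marker lists with 0 calls were T cell (0 of 14 genes at an unadjusted p under 0.05), endothelial (2 of 15), smooth muscle and pericyte (3 of 12), stromal progenitor (1 of 14), skeletal muscle (2 of 13) and lymph node (2 of 8). Immediate early and heat shock genes had 0 calls and 3 of 20 at an unadjusted p under 0.05. Over all lists 22 of 600 distinct genes passed (3.67%, against 1.69% of all genes), 13 higher and 9 lower. The lists were chosen with earlier results of these data known, so the gap between these shares is a description with no test.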

How the data were processed

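The authors deposited 1 value table with 34760 rows and 12 columns of log2 intensities. Per the labels' protocols, RNA was amplified and biotin-labelled by the array maker's whole transcript procedure; the submitters' processing notes name affy, and the sources used here do not give background correction or normalization. Base 2 was inferred from the range of 2.09 to 14.2, and the table holds no detection calls. Rows were named through the platform annotation: 21640 had 1 symbol, 1321 several and 11799 none, and 21553 of the first matched RefSeq (GRCm38.p6) by Entrez identifier. For 954 genes with several rows, the row of highest mean across the 12 arrays was used.

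With limma 3.58.1 (R 4.3.3), 4 group means were estimated from the 12 arrays together, which left 8 residual degrees of freedom; tests were two-sided with Benjamini-Hochberg adjustment over 19937 genes. Errors after ± are standard errors of the fit with 3 arrays a group, and the number of arrays limits the precision: an exact permutation test of 3 against 3 cannot go below p = 0.1. On simulated data for KO HFD against WT chow with 19937 genes, 96% of 100 genes changed by log2 1 and 96% of 100 changed by log2 2 were recovered, with 7 false calls. Noise was drawn for each gene on its own, without shifts that many genes share on 1 array, and the changed genes were picked at random. In the real data 28 of 47 genes over 2-fold higher and 31 of 253 over 2-fold lower passed. The simulated shares are therefore no detection rate for the real data.

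The comparison, the 37 gene lists (683 entries, 630 measured) and the rule for named genes were chosen with earlier results of these data known. Named are Ahnak, the 12 largest rises and 12 largest falls that passed without overlap, up to 6 genes each way per class, the 4 members of each list with the smallest p, and 17 adipose genes; predicted genes, clones, olfactory receptors and small RNAs were passed over. Other list members are given as examples. Not all named genes are described. Alternatives were the compared groups alone, array weights, trended and robust variances, a filter on dim rows, means of rows, quantile scaling, median centring, the replicate number as a block, and leaving out each array.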

Additional observations from a re-analysis of the deposited data

How the results depend on the processing

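With array weights, where 1 array took a weight of 19.993 and the fit did not converge, 1896 genes passed (906 higher, 990 lower), 249 were kept, 109 partly kept, 61 unresolved and 15 changed in KO HFD and not in WT HFD, and 84 list genes passed. Median centring gave 740 calls, 621 higher, and 36 list genes. Quantile scaling gave 220 calls, 82 lower. The filter on dim rows left 116 unresolved and 2 changed in KO HFD and not in WT HFD; fewer genes are tested there. With the compared groups alone, 9 were partly kept, and 180 of the 337 calls were shared. Direction is no measure here, since the arrays of all 337 genes do not overlap between the groups. The labels' replicate numbers did not pair the arrays: deviations of same-numbered arrays correlated between -0.408 and 0.379. With the replicate block 115 genes passed (74 higher, 41 lower; 110 shared), 27 were kept and 8 partly kept, and 10 list genes passed. Ahnak passed with the compared groups alone (-0.551, adjusted p = 0.033), array weights (-0.534, 0.0092), trended and robust variances (-0.551, 0.049) and the filter on dim rows (-0.551, 0.039). The causes of these shifts were not tested.

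Leaving out single arrays gave 31 to 618 calls, 24 to 290 higher and 7 to 346 lower, 11 to 199 kept, 0 to 35 partly kept, 281 to 830 absent, 262 to 521 unresolved, 0 to 6 changed in KO HFD and not in WT HFD, and 3 to 36 list genes. Ahnak ranged from -0.604 to -0.511 (adjusted p of 0.016 to 0.2). Of 56 named genes that passed, 8 did so in every such fit: Jade3, Dock8, Peg10, Bmp3, Usp2, Vgll3, Synpo2 and Nfil3.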
